A study of Mus musculus with 24 samples.

Results

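Interferon response and major histocompatibility complex (MHC) genes were examined in the nucleus accumbens (NAc), a ventral striatal region of the reward circuit. The set was defined by gene symbol and mean count, and its rule used no measured change, but it was chosen with earlier results of these data known. It took protein-coding genes of the H2, Ifi, Ifit, Ifitm, Ifnar, Ifngr, Irf, Stat, Oas and Gbp families together with B2m, Tap1, Tap2, Isg15 and Bst2, and kept those with a mean of at least 10 counts over all libraries. Of 52636 gene identifiers, 111 had a fitting symbol and 72 passed the count minimum. Just inside this minimum were H2-Q7, H2-Q6 and H2-Oa, with mean counts of 10.2, 10.8 and 11.54, and just outside it were Ifi207, Ifi27l2a and Oasl1, with 9.33, 8.88 and 8.83. The 72 genes were 11 class I heavy chains, 3 genes of the class I light chain and peptide transporter, 8 MHC class II genes, 4 interferon receptor subunits, 7 STATs, 9 IRFs, 7 guanylate-binding proteins (GBPs) and 23 other interferon-induced proteins. The H2 prefix therefore brought in class II as well as class I genes.

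The animals were C57BL/6 mice (C57BL/6J in the written protocol) killed at postnatal day 50 (P50). Pups of the MSUS groups (maternal separation combined with unpredictable maternal stress) were taken from the dam daily between P1 and P14, for 2 h by the series' design text and 3 h by the written protocol, and Con litters were left undisturbed. Each of the 4 combinations of sex and treatment held 6 animals, referred to below by group and number. Each library held rRNA-depleted total RNA from the bilateral NAc punches of 1 animal. Whole litters were assigned to Con or MSUS by the written protocol, but the litter of each animal was not named. Animals of a group may therefore be littermates, and p-values measure the spread between these animals, not between litters.

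Interferons are cytokines released in response to viruses and other signs of infection. Type I interferons bind Ifnar1 and Ifnar2, interferon gamma binds Ifngr1 and Ifngr2, and Janus kinases at these receptors activate STAT factors, which with IRFs switch on interferon-stimulated genes. Type I signalling acts mainly through a STAT complex with Stat2 and Irf9 on interferon-stimulated response elements (ISREs), and interferon gamma mainly through STAT dimers on gamma-activated sites (GASs). Class I molecules consist of a heavy chain, encoded in mouse by H2 genes, and the light chain B2m, and they carry peptides that Tap1 and Tap2 pump into the endoplasmic reticulum. In brain, class I molecules are also known for roles in synapse remodelling.

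Part of the set shares letters in its promoters. RefSeq windows covering the 250 bases before the gene start (GRCm38.p6) were matched for 61 of the 72 genes and searched on both strands for GAAA and GAAA with any 2 bases between them, the core of an ISRE, and for TTCNNNGAA, the core of a GAS. The ISRE-like letters were present in 19 of 61 windows (31.1%) and in 3.1% of the windows of 16478 protein-coding genes, and the GAS-like letters in 11 windows (18%) against 6.64%. All 4 GBP windows that could be matched held the ISRE-like letters, as did 10 of 20 windows of other induced proteins, 2 of 10 class I heavy chains, 1 of 8 IRFs, 1 of 6 STATs, and none of 7 class II genes and 4 receptor subunits. The windows of Ifit1 and Ifit1bl2 overlap and share their matches. RefSeq starts can differ from those of the GENCODE annotation. Of the GBP windows, 1 lay 2955 bases from the GENCODE start, and that of H2-DMa lay 3290 bases from it. A match describes these letters only, and binding was not measured. Variants of these letters were not searched, so a window without a match is not shown to lack such an element. The windows of the representative genes with ISRE-like letters are shown because the results below turn on several of them. Capitals mark ISRE-like and GAS-like letters, which overlap in Bst2, and each sequence runs 5′ to 3′ on the strand of its gene.
B2m, chr2:122147437-122147686, plus strand: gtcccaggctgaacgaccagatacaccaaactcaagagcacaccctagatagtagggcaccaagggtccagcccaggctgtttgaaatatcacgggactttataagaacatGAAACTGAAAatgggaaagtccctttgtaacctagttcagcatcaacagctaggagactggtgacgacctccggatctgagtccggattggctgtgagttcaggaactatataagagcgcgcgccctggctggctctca
Bst2, chr8:71537473-71537722, minus strand: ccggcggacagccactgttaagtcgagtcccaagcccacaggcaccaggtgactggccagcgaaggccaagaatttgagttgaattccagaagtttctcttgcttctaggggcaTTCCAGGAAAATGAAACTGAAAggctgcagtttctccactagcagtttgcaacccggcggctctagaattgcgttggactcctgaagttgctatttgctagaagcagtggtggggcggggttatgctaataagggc
Gbp7, chr3:142530086-142530335, plus strand: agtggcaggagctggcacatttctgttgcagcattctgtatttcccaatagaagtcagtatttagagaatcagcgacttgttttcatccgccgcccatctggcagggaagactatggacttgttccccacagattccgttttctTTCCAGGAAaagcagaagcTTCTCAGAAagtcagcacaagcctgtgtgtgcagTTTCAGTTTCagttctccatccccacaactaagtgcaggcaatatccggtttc
Ifit3, chr19:34583279-34583528, plus strand: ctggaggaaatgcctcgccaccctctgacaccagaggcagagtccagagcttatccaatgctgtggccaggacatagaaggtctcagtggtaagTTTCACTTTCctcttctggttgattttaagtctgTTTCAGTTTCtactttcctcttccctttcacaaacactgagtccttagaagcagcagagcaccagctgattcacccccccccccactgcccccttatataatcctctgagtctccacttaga
Isg15, chr4:156200819-156201068, minus strand: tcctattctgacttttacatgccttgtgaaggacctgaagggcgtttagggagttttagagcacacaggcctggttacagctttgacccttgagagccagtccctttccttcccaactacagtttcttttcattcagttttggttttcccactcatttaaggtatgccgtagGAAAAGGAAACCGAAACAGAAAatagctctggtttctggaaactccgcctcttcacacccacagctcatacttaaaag
Stat2, chr10:128270248-128270497, plus strand: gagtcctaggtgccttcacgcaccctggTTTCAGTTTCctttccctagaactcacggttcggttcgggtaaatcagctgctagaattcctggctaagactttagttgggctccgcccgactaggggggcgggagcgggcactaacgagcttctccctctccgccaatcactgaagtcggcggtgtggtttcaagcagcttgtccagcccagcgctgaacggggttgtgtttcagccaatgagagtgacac

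Isg15, a ubiquitin-like modifier, had 3 overlapping ISRE-like matches that begin 78, 72 and 66 bases before its start. Ifit3, which belongs to a family of proteins that bind viral RNA, had 2, beginning 156 and 122 bases before the start. Bst2, or tetherin, which holds budding virus at the cell surface, had 2 overlapping matches at 130 and 124 bases. Gbp7 and B2m had 1 each, at 53 and 139 bases, and Gbp7 also had 2 GAS-like matches at 106 and 87 bases. In Stat2 the single match began 222 bases before the start.

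The libraries held 39923666 to 70575745 sense-strand counts. Markers of medium spiny neurons, the principal cells of the NAc, were present in every library, with a summed normalised count of 84049 to 241405 over 9 genes including Drd1 and Drd2; the lowest sum was that of Con female 3. Markers of cortical excitatory neurons were present too, and varied more: the summed normalised count of 8 genes ran from 17310 to 85819 in the female controls and from 10608 to 40281 in MSUS females, and from 11256 to 61007 in male controls and 12860 to 88050 in MSUS males. The share of read pairs assigned to no gene was 31.0% to 34.8% in Con females and 36.3% to 43.9% in MSUS females, with no overlap, whereas it was 34.7% to 40.6% in Con males and 32.2% to 44.7% in MSUS males.

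Levels spread widely within most roles, with all 4 receptor subunits well expressed and all 7 GBPs low. In normalised counts per kilobase of exon, which allows genes to be compared, B2m stood first with a median of 1763 over the 24 animals (range 1593 to 2274). Ifnar1 (453), Ifi27 (448), Stat5b (440) and H2-D1 (370) came next, and the ranges of these 4 overlapped. Ifi27 encodes a mitochondrial protein and Stat5b a factor of growth hormone and prolactin signalling. Among the heavy chains the classical class I genes H2-D1 (370) and H2-K1 (187) led, and H2-Q7 was lowest at 2.09.

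The 4 receptor subunits had medians of 453 for Ifnar1, 346 for Ifngr2, 279 for Ifngr1 and 143 for Ifnar2 per kilobase. STATs ranged from 440 for Stat5b to 4.13 for Stat4, and IRFs from 237 for Irf3, the factor that starts interferon production, to 3.40 for Irf4. GBPs, GTPases that attack the membranes of pathogens, spanned 2.46 to 47.7. Isg15 (34.7) and Tap1 (22.1) were as low, whereas Ifitm3, which blocks viral entry at membranes, reached 333. The cytokines themselves were at or near 0. None of 11 interferon genes passed the count filter, and 7 of them, Ifnb1 included, had 0 counts in every library. Ifne had a count in 6 libraries, Ifna2 in 4, and Ifnz and Ifng in 1 each, with a highest normalised count of 2.67 (Ifna2).

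**Figure D1:**
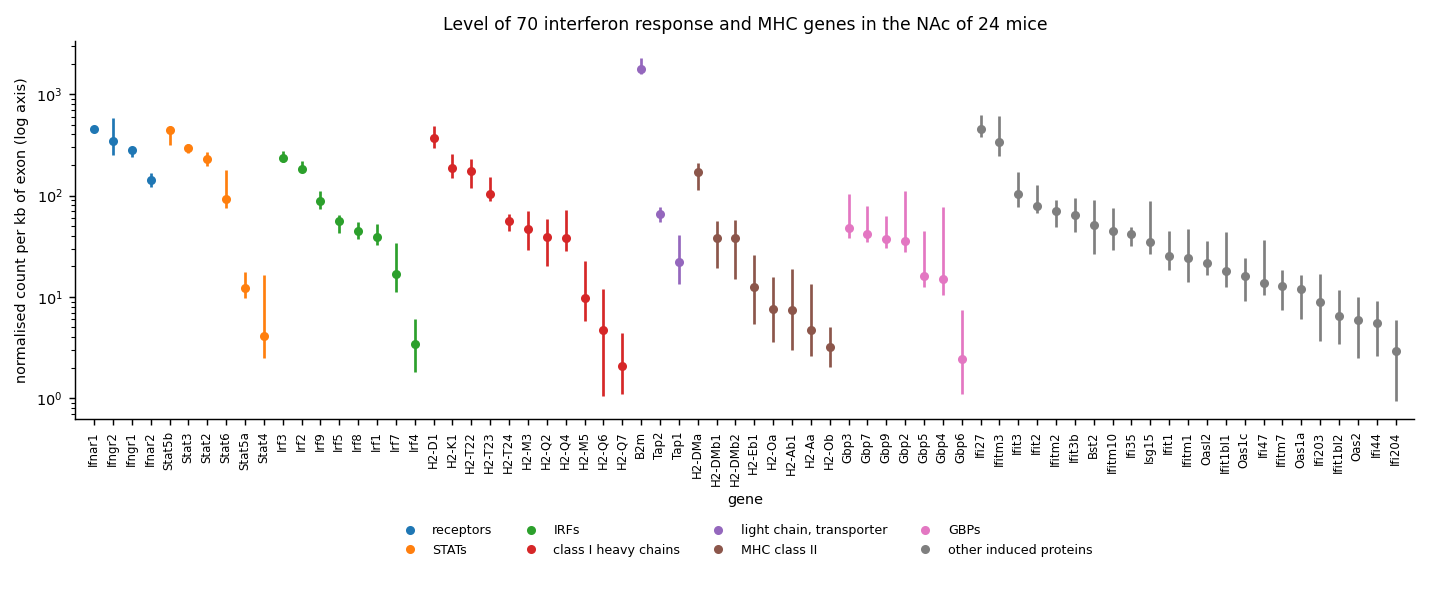
Level of 70 genes of the set in the NAc, as normalised count per kilobase of exon on a log axis, with genes grouped by role; points are medians and lines ranges over 24 animals. B2m stands alone at the top, and the range of Gbp4 extends far above its median.

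Spread among animals of 1 group differed widely between genes. Over 24 animals the within-group SD of log2 CPM was 0.041 for Ifnar1, 0.074 for Stat3 and 0.0745 for Ifngr1. Among genes with a mean of at least 100 counts it was largest for Gbp4 (0.557), Gbp2 (0.385) and Ifitm10 (0.359). The heat map of all animals shows where this spread came from: few columns stand out, and different genes stand out in each.

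**Figure D2:**
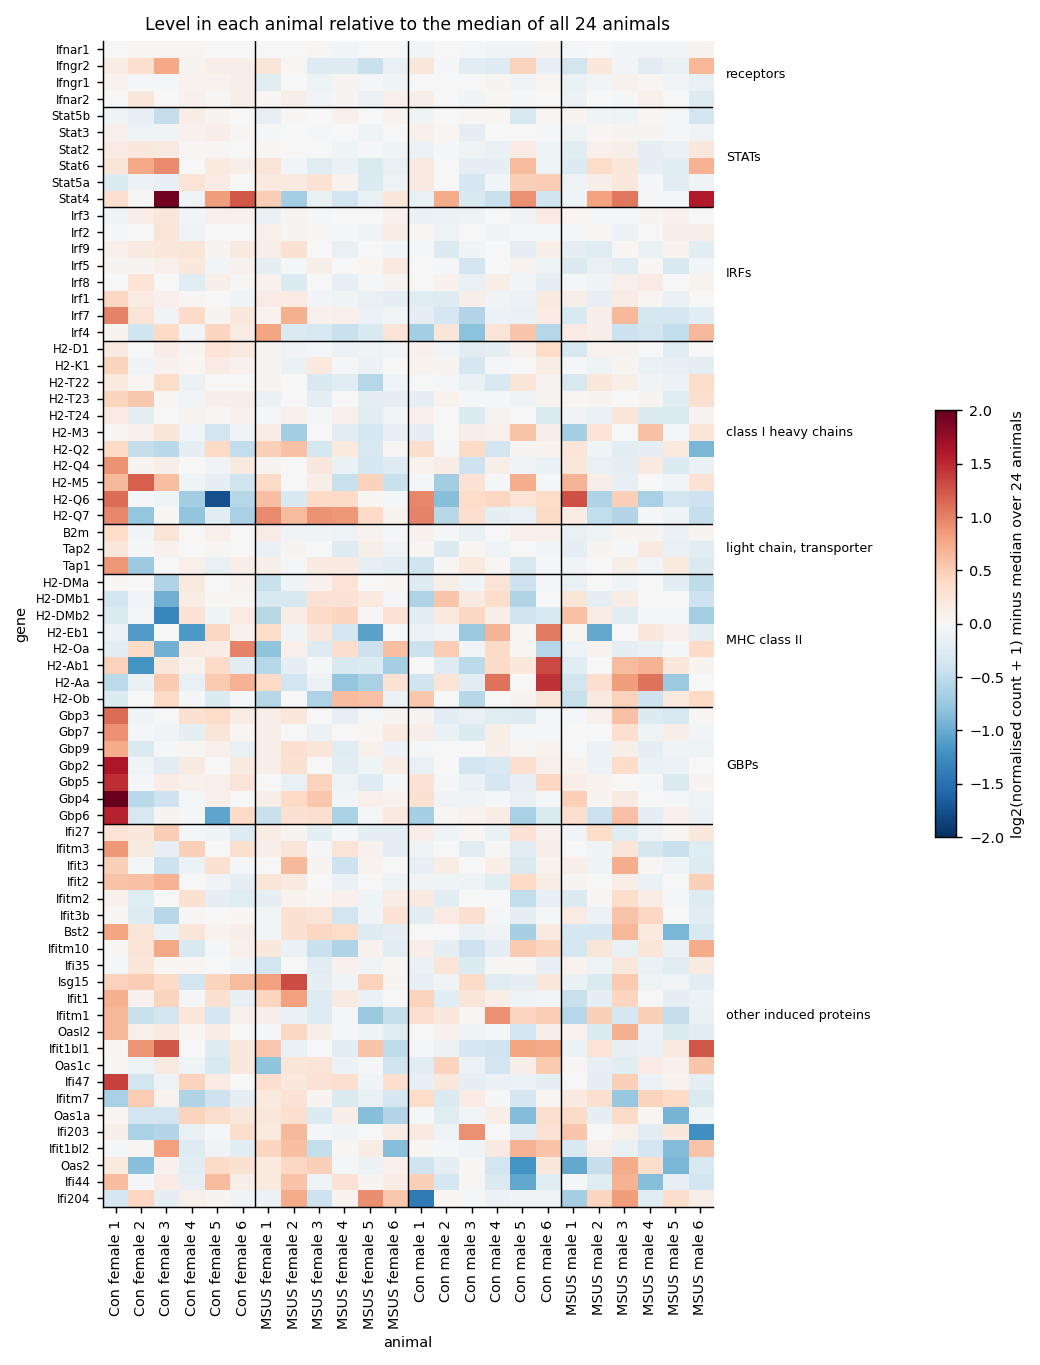
Level of the same 70 genes (rows, grouped by role) in each of 24 animals (columns, grouped by sex and treatment), as log2(normalised count + 1) minus the median over all animals; the colour scale ends at -2 and 2. Con female 1 is red over all 7 GBPs, and no group of 6 animals forms a uniform block.

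Con female 1 was highest for more genes of the set than any other animal, and it was chosen for description after its values were seen. It was the highest of 24 animals for 17 of 72 genes (23.6%), compared with 1.63% of the 21500 genes tested, and at or above 1.5 times the median of the other 23 animals for 21 genes (29.2%), compared with 3.63%. All 7 GBPs were highest in this animal. Gbp4 (chr5:105115767-105139586, minus strand) had a normalised count of 582 in Con female 1 and 77.7 to 166 in the other 23 animals, a ratio of 5.19 to their median. Gbp2 had 281 against 69.1 to 117, and Gbp7 442 against 193 to 295. Neither range came near the value of Con female 1.

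Genes of class I presentation were high in the same animal. Tap1 had a normalised count of 222 against 72.9 to 138, H2-K1 748 against 433 to 630, and B2m 1956 against 1370 to 1814. The excess was thus smaller for the heavy and light chains than for the GBPs. H2-Q4, Irf1, Irf7, Ifi47, Ifitm3, Bst2 and Tap2 were also highest there. By role, the median ratio of Con female 1 to the other animals was 2.81 over the GBPs and 1.36 over the class I heavy chains, but 1.03 over the receptor subunits, 1.13 over the STATs and 0.824 over the class II genes.

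Some of the pathway genes outside the set were high there too. None of 12 genes of nucleic acid sensing and 10 kinases and brakes was highest in Con female 1 (median ratios of 1.01 and 1.04), compared with 8 of 23 other effectors (1.15). Among the listed genes, the immunity-related GTPases Iigp1 (246 against 32.6 to 76.4) and Igtp (342 against 80.3 to 144) and Nlrc5, the transactivator of class I genes (156 against 39.7 to 89.5), were highest in Con female 1. So were Psmb9 and Psmb8, subunits of the immunoproteasome, at 2.30 and 1.70 times the median of the other animals. The antiviral GTPases Mx1 and Mx2 were low in this animal, at 0.495 and 0.871 times that median, as was Klra2 (0.478). Mx1 and Klra2 rested on few reads, at 5.07 and 10.1 normalised counts there. Rsad2, among the 8 effectors highest in this animal, had 132 against 52.7 to 124. Ifng had 0 counts in this library. The summed microglia, endothelial and lymphocyte and other leukocyte markers were 0.996, 0.971 and 1.27 times the median of the other Con females. The leukocyte sum was low in every library (25 to 137), and Cd3d, Cd8a and Nkg7 had a median of 0 over the 24 animals. The cortical marker sum was 1.61 times that median, and its part in the result was not tested.

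Of the Ifit and Oas genes, Ifit1, Ifit3, Ifit3b, Oas2 and Oasl2 were highest in MSUS male 3 or MSUS female 2. The remaining genes of these families were highest in other animals. MSUS male 3 and MSUS female 2 were likewise singled out after their values were seen. Ifit3 had a normalised count of 300.9 in MSUS male 3 and 283 in MSUS female 2, compared with 134 to 251 in the other 22 animals. Isg15 had 66.4 in MSUS female 2 and 19.9 to 46.8 in the others. In MSUS male 3, Oas2, Oasl2, Ifi44 and Ifit3b were also the highest of 24 animals, at 1.72, 1.64, 1.66 and 1.49 times the median of the others, and in MSUS female 2 so was Ifit1. The Oas family makes a second messenger that activates RNA degradation. The GBPs were not highest in either animal, at a median ratio of 1.26 in MSUS male 3 and 1.247 in MSUS female 2, against 2.81 in Con female 1. Con female 1 was itself high for several of the same genes, at 1.67 times the median of the others for Ifit1, 1.60 for Oasl2, 1.57 for Ifi44 and 1.39 for Ifit3, with 21 or 22 of 23 animals below it.

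**Figure D3:**
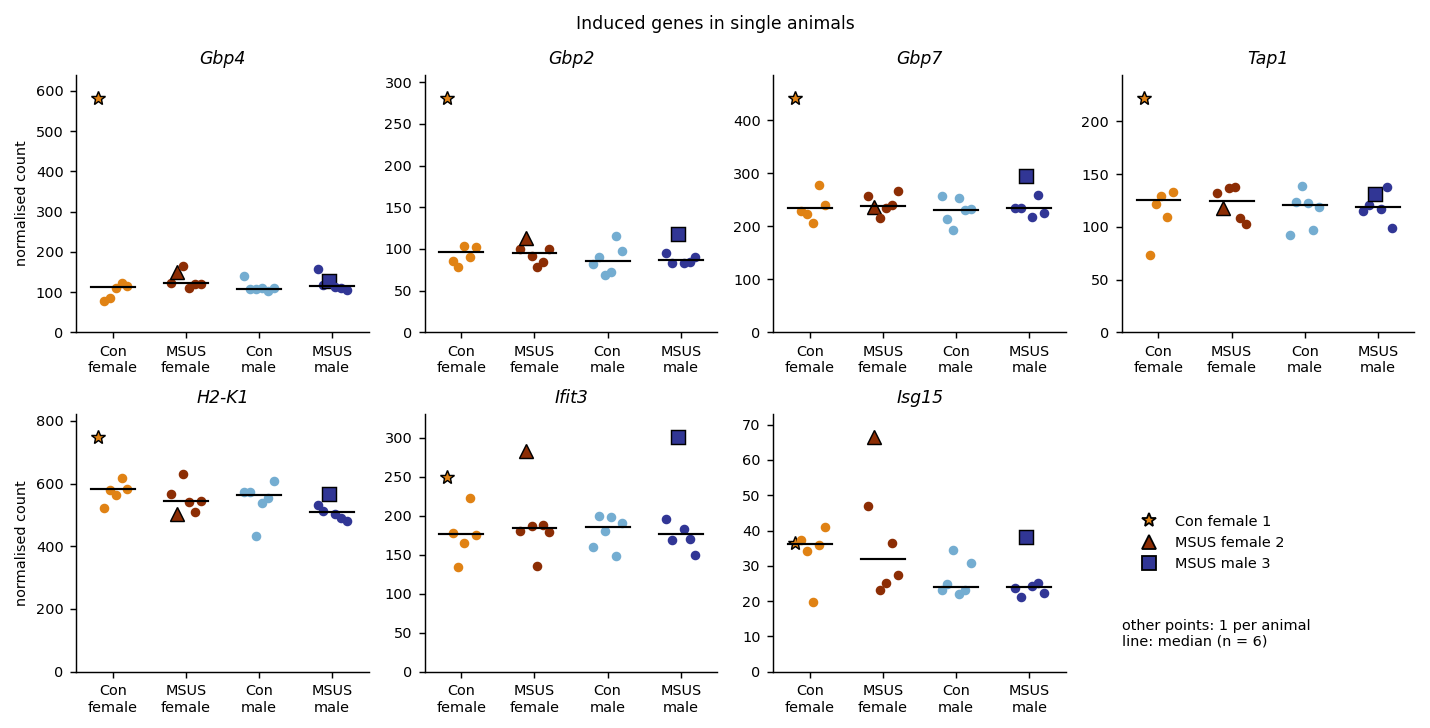
Normalised count of 7 genes in each animal of the 4 groups; each point is 1 animal and the line is the median of 6. Con female 1 (star) stands above all others for Gbp4, Gbp2, Gbp7, Tap1 and H2-K1, whereas MSUS male 3 (square) and MSUS female 2 (triangle) are highest for Ifit3.

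To ask whether MSUS altered these genes in females, MSUS and Con females were compared with edgeR's quasi-likelihood test and Benjamini-Hochberg adjustment over all genes, at an adjusted p below 0.10. Of 71 genes tested, 7 passed (9.86%), against 25.1% of all 20571 genes, and 9 had an unadjusted p under 0.05, against 32.7%. The share in the set was thus below the background of this comparison. Lower in MSUS females were H2-D1, H2-T23, Stat2, Stat6, Stat4 and Ifngr2, and H2-Q7 was higher. Of all genes, 11.9% were called lower and 13.1% higher. Log2 fold changes were below 0 for 53 of 71 genes (74.6%), with a median of -0.11, compared with 50.6% and -0.003 over all genes. For no gene of the set did the 6 MSUS and 6 Con females fail to overlap, whereas they did so for 7.19% of all genes. Without Con female 1, 43 genes were below 0, the median was -0.05, and 6 genes passed. The number that passed was 4 without any 1 of Con females 2 and 3 and MSUS females 2 and 6, 3 without MSUS female 4, 2 without MSUS female 5 and 1 without MSUS female 3.

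**Figure D4:**
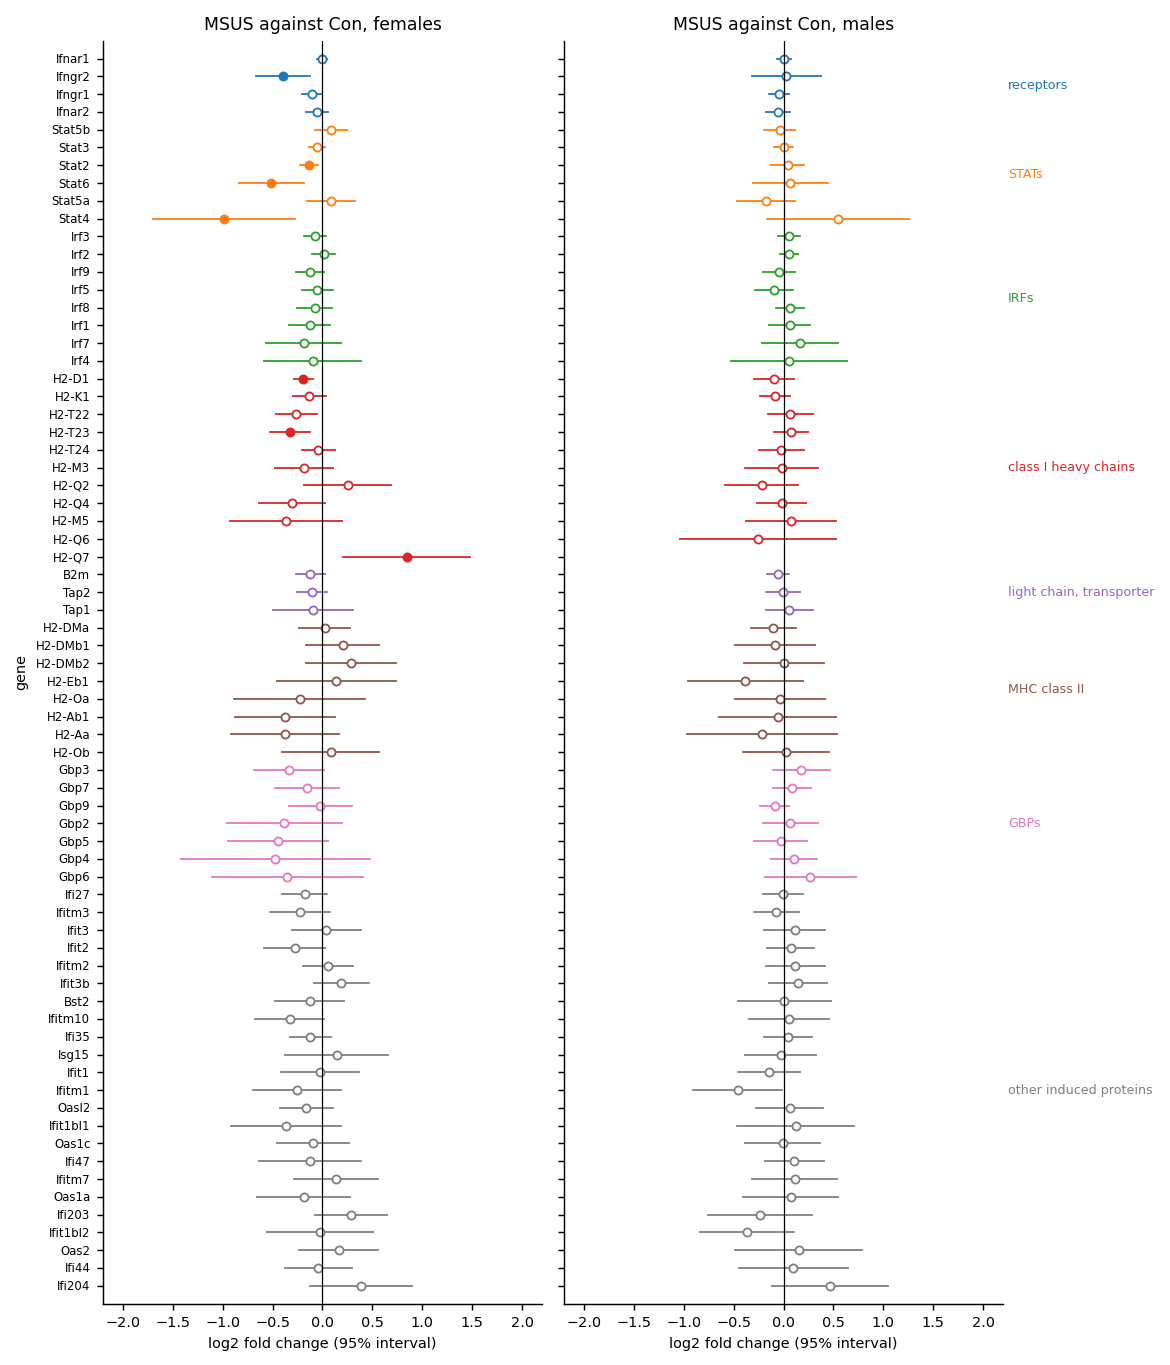
Log2 fold change with 95% interval in MSUS against Con for females (left) and males (right), 1 row per gene for the 70 genes of the level plot, in its order. Filled points pass an adjusted p of 0.10: 7 in females and 0 in males. H2-Q6 in females and H2-Q7 in males did not pass the count filter and have no point.

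H2-D1, a classical class I heavy chain (ENSMUSG00000073411.11, chr17:35262730-35267499, plus strand), gave the smallest adjusted p. Its normalised count was 1074, 944, 1060, 985, 1152 and 1089 in the Con females and 985, 905, 927, 883, 885 and 918 in the MSUS females. All MSUS females were below the Con median and 1 of them reached into the Con range. The means were 1051 ± 75.0 (SD, n = 6) and 917 ± 37.5, a log2 fold change of -0.19 ± 0.049 (SE, edgeR adjusted p = 0.021). It passed with each animal left out in turn (adjusted p of 0.014 to 0.059). With the summed endothelial markers as a covariate it was -0.13 and did not pass (edgeR adjusted p = 0.13), whereas H2-T23, described next, was at -0.50 (0.0096) and Stat4 at -0.38 (0.55). That sum was 12673 to 14018 in Con females (median 13860) and 12690 to 13456 in MSUS females (median 13027). All Con females but Con female 2 were above every MSUS female, so this covariate can take up part of the difference between the groups.

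H2-T23, the nonclassical class I gene of Qa-1 (ENSMUSG00000067212.8, chr17:36029773-36032855, minus strand), is a ligand of inhibitory receptors on natural killer cells. Normalised counts were 409, 436, 307, 289, 331 and 327 in the Con females and 275, 301, 267, 301, 265 and 263 in the MSUS females. Con females 1 and 2 were the highest, and 2 MSUS females lay within the Con range. The log2 fold change was -0.33 ± 0.10 (SE, edgeR adjusted p = 0.048), and without MSUS female 3 it was -0.32 with an adjusted p of 0.101. Over the 10 class I heavy chains tested, 8 were below 0, with a median log2 fold change of -0.19. H2-K1 gave -0.13 ± 0.084 (SE, edgeR adjusted p = 0.30), B2m -0.12 (0.27), Tap1 -0.10 (0.77) and Tap2 -0.10 (0.38), none of which passed. Without Con female 1, Tap1 turned to 0.12, and H2-K1 and B2m were at -0.057 and -0.064.

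H2-Q7 (chr17:35439155-35443773, plus strand) was measured at very few counts: 18.26, 4.795, 9.091, 4.731, 7.621 and 5.356 normalised in the Con females and 18.15, 14.44, 17.55, 17.04, 12.14 and 9.475 in the MSUS females. Con female 1 was the highest of all 12, and the other 5 Con females were below every MSUS female. It entered the test mainly through the group in which it is high, as raw counts reached 10 in 5 MSUS females and 1 Con female, so its direction was partly set by the filter and its call is given as a description. The log2 fold change was 0.84 ± 0.33 (SE, edgeR adjusted p = 0.093). It passed in only 2 of 12 fits with 1 animal left out, those without Con female 1 or MSUS female 6. Its level is uncertain, since read pairs that fit near-identical H2-Q genes as well are left out of these counts.

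The other lower genes belong to signal transduction. Ifngr2, the signalling subunit of the interferon gamma receptor (ENSMUSG00000022965.7, chr16:91547072-91565623, plus strand), had normalised counts of 1450, 1647, 2194, 1348, 1432 and 1407 in the Con females. In the MSUS females they were 1547, 1333, 1089, 1083, 952 and 1176. Con female 3 stood apart at the top, and only MSUS female 1 was inside the Con range. The log2 fold change was -0.40 ± 0.14 (SE, edgeR adjusted p = 0.068), and it did not pass without Con female 2 or MSUS females 3, 4, 5 or 6, where it was between -0.39 and -0.34. The other receptor subunits did not pass: Ifngr1 gave -0.11 ± 0.049 (SE, edgeR adjusted p = 0.15), Ifnar2 -0.05 (0.54) and Ifnar1 -0.01 (0.89).

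Stat6, the factor of interleukin 4 signalling (ENSMUSG00000002147.18, chr10:127642986-127660957, plus strand), had 479, 686, 780, 405, 459 and 436 normalised counts in the Con females and 482, 387, 342, 369, 329 and 363 in the MSUS females. Con females 2 and 3 were far above the rest, and again MSUS female 1 was the only MSUS female inside the Con range. The log2 fold change was -0.51 ± 0.16 (SE, edgeR adjusted p = 0.053), and it did not pass without Con female 2 or MSUS females 2, 3 or 5, where it was between -0.52 and -0.43.

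Stat4, the factor of interleukin 12 signalling (chr1:51987148-52107189, plus strand), was low, at 20.29, 16.3, 63.63, 15.14, 29.4 and 39.28 normalised counts in the Con females and 22.93, 9.628, 14.26, 12.03, 14.34 and 18.95 in the MSUS females. All MSUS females were below the Con median. The log2 fold change was -0.99 ± 0.36 (SE, edgeR adjusted p = 0.079). It passed without any 1 of Con females 1, 2 or 4 or MSUS female 1 and not without any other animal, and it was -0.64 without Con female 3.

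Stat2, the STAT that is particular to type I and type III interferon signalling (chr10:128270559-128292849, plus strand), had 1520, 1566, 1528, 1378, 1379 and 1356 normalised counts in the Con females. The MSUS females had 1385, 1362, 1346, 1275, 1312 and 1279. The groups overlapped by 2 MSUS females. The log2 fold change was -0.13 ± 0.047 (SE, edgeR adjusted p = 0.071), and the call was kept without Con females 4, 5 or 6 or MSUS female 1 only. Its partner Irf9 did not pass, at -0.12 ± 0.072 (SE, edgeR adjusted p = 0.25).

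**Figure D5:**
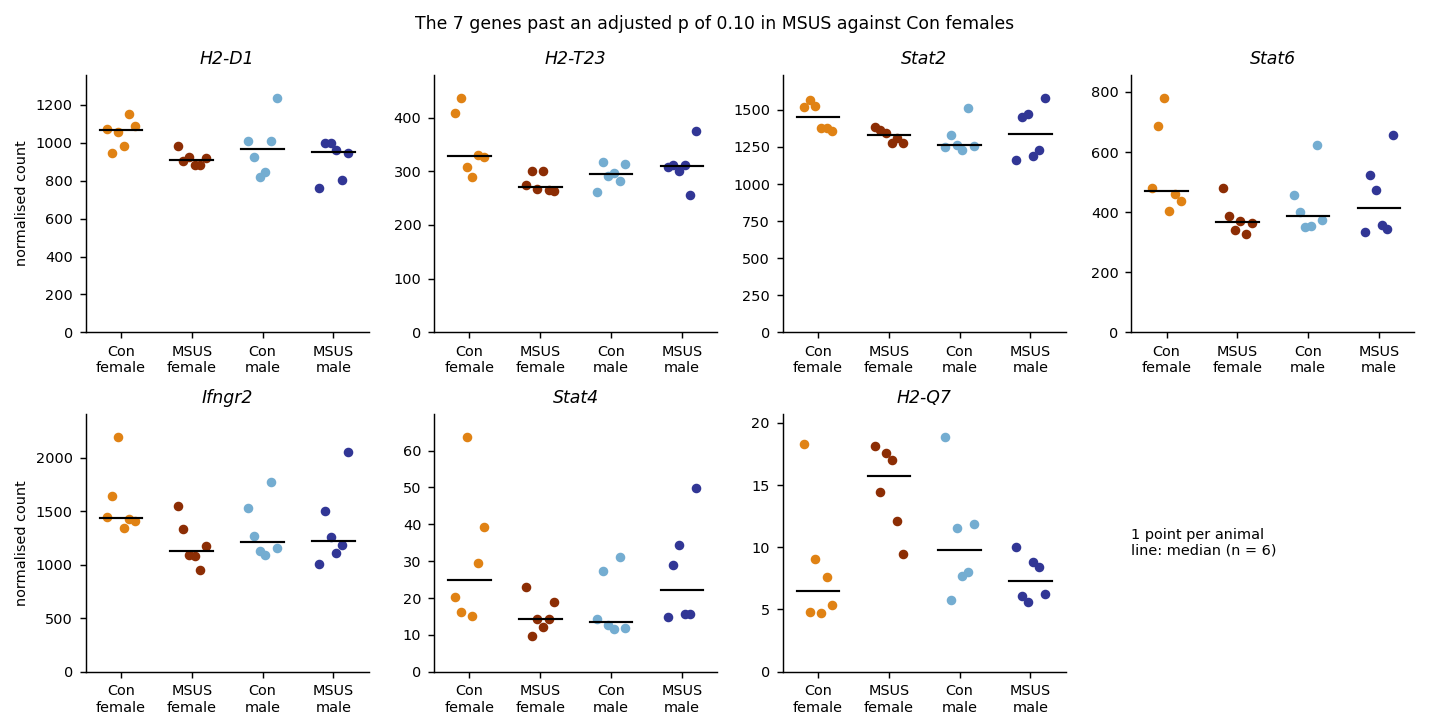
Normalised count of the 7 genes that passed in females, in each animal of the 4 groups; each point is 1 animal and the line is the median of 6. Most MSUS females lie lower than most Con females for all but H2-Q7, but MSUS female 1 lies above the Con female median for Ifngr2 and Stat6. MSUS male 6 and Con male 5 lie above the other males for these 2 genes.

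The falls estimated for Ifngr2, Stat6, Stat4 and Stat2 were smaller when markers of cortex entered the fit. The median cortical sum was 34265 in Con and 14711 in MSUS females. As a covariate it can therefore take up part of the difference between these groups. In females 1 of the 8 cortical excitatory neuron markers tested was called lower, with a median log2 fold change of -1.75, and none of the 8 was at 0 in any library; a smaller share of cortical cells and less RNA per cell cannot be told apart. The 3 animals with the largest cortical sums were MSUS male 6 (88050), Con female 3 (85819) and Con male 5 (61007). They also held the 3 highest values of Ifngr2, at 2059, 2194 and 1780. With the cortical sum as a covariate, the log2 fold changes in females were -0.06 for Ifngr2, -0.08 for Stat6, -0.04 for Stat2 and -0.47 for Stat4, and none passed (edgeR adjusted p of 0.50 to 0.65). H2-D1 passed at -0.17 (edgeR adjusted p = 0.093), and H2-T23 at -0.23 did not (0.28). In that fit 3 genes passed, H2-D1, H2-DMa and Ifngr1, with 43 of 71 below 0, and 14.1% of all genes passed. Other markers called lower in MSUS females were 3 of 5 of oligodendrocytes, 2 of 5 of mural cells, 1 of 5 of astrocytes and 1 of 5 of red blood cells, and none of 10 of microglia or 8 of endothelium were. The part of oligodendrocytes, mural cells, astrocytes and red blood cells in the result was not tested.

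The unassigned share separated the female groups completely, so it and MSUS cannot be told apart among females. With that share as a covariate none of the 71 genes passed, nor did any of all genes; 1 gene of the set had an unadjusted p under 0.05. The log2 fold changes there were -0.20 for H2-D1 and -0.64 for Ifngr2 (edgeR adjusted p = 0.76 for both) and 0.22 for Gbp4.

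GBPs and the remaining induced proteins gave no call in females. All 7 GBPs had log2 fold changes below 0, with a median of -0.35, and none passed. For Gbp4 the estimate was -0.47 ± 0.48 (SE, edgeR adjusted p = 0.52), and without Con female 1 it was 0.37 (0.12). Gbp2 turned from -0.38 to 0.04 and Gbp7 from -0.15 to 0.04 when that animal was left out. The direction of these 3 genes in females thus rested on 1 control animal. Of 23 other induced proteins 15 were below 0 and 8 above, with a median of -0.10. Ifit3 gave 0.04 ± 0.18 (SE), Isg15 0.14 ± 0.26, Bst2 -0.13 ± 0.18, Ifitm3 -0.23 ± 0.15 and Ifi27 -0.18 ± 0.12 (edgeR adjusted p of 0.30 to 0.90). Without MSUS female 2, Ifit3 turned to -0.10 and Isg15 to -0.098, and without Con female 1 Bst2 turned to 0.011. None of 9 IRFs passed, with Irf3 at -0.07 ± 0.058 (SE). None of 8 class II genes passed either, with 5 above 0.

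Other genes of the pathway were counted from the same test. Of 77 listed, 75 were in the files and 61 were tested in females, of which 8 passed, against 25.1% of all genes. Higher in MSUS females were Jak2 (0.17), Dhx58 (0.21) and Klra2 (0.91), and lower were Jak1 (-0.16), Socs3 (-0.98), Tapbpl (-0.20), Psmb10 (-0.40) and Cmpk2 (-0.11), in log2 fold change. Jak1 and Jak2 are receptor kinases, Socs3 is a feedback inhibitor of cytokine receptors, Dhx58 modulates RNA sensing, and Klra2 belongs to the Ly49 receptors of class I molecules. Dhx58 was the only one whose groups did not overlap (7.19% of all genes), at a mean of 97.0 ± 3.80 (SD, n = 6) in MSUS and 83.7 ± 6.86 in Con females. Socs3 was highest in Con female 3 (179) and MSUS male 6 (161), the animals with the largest cortical sums. By list, 3 of 10 kinases and brakes, 2 of 12 genes of peptide loading and immunoproteasome, 1 of 24 other effectors, 1 of 12 genes of nucleic acid sensing and 1 of 2 class I receptors passed.

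In males none of 71 genes passed between MSUS and Con, and none had an unadjusted p under 0.05. The background was 0.0%, with 0 of 20691 genes at the adjusted threshold, while 191 genes (0.923%) were at an unadjusted p under 0.05, and DESeq2 likewise called none of the set. The median log2 fold change was 0.008 and 38 genes were above 0. The smallest p belonged to Ifitm1, a relative of Ifitm3, at -0.46 ± 0.23 (SE, edgeR adjusted p = 1.0). Its normalised counts averaged 35.9 ± 8.24 (SD, n = 6) in Con and 25.8 ± 9.001 in MSUS males. The genes called in females had male values of -0.10 ± 0.10 (SE) for H2-D1, 0.08 ± 0.088 for H2-T23, 0.03 ± 0.18 for Ifngr2, 0.07 ± 0.19 for Stat6, 0.04 ± 0.083 for Stat2 and 0.55 ± 0.36 for Stat4. The 95% interval in males was -0.30 to 0.10 for H2-D1 and -0.32 to 0.37 for Ifngr2. The first interval includes the estimate in females and the second does not, which leaves out the error of the female estimate. A difference between the sexes is tested by the interaction, given next, which Ifngr2 did not pass.

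Whether the sexes responded differently was tested by the interaction of group and sex over all 24 animals. None of 72 genes passed, against 0.0% of 21500, and 5 genes were at an unadjusted p under 0.05, against 18.7% of all. H2-T23 came first, and its effect in females was lower than in males by a log2 value of -0.41 ± 0.13 (SE, edgeR adjusted p = 0.20). H2-Q7 followed at 1.33 ± 0.45 and Stat4 at -1.54 ± 0.54. The value of H2-Q7 is given as a description, since this gene passed the count filter mainly through its high values in MSUS females. For H2-D1 the difference was -0.10 ± 0.12 and for Ifngr2 -0.43 ± 0.24. Without MSUS male 1, 3 genes passed, H2-Q7, H2-T23 and Stat4, while 14.0% of all genes did. The call of H2-Q7 in that fit is likewise a description only.

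Females and males were also compared within each group. In Con animals none of 71 genes passed (2.64% of all genes did) and 6 were at an unadjusted p under 0.05, against 17.8% of all. Log2 values of females against males were above 0 for 53 genes, with a median of 0.12, and all 7 GBPs were among them. Con female 1 was in the female group. Without it, 22 rather than 18 genes were below 0 and the median was 0.06. With the unassigned share as a covariate, 31 were below 0, the median was 0.03, and 0.0533% of all genes passed. That share was 31.0% to 34.8% in Con females and 34.7% to 40.6% in Con males. Irf9, the DNA-binding partner of Stat2, came nearest to the threshold at 0.24 ± 0.066 (SE, edgeR adjusted p = 0.101). Its normalised count was 539 ± 28.0 (SD, n = 6) in Con females and 458 ± 45.4 in Con males. In MSUS animals none of 72 genes passed (0.135% of all genes), 3 were at an unadjusted p under 0.05, against 7.29% of all, and the median was 0.004. H2-Q7, which passed the count filter mainly through its high values in MSUS females, was at 1.00 ± 0.23 (SE, edgeR adjusted p = 0.21), with a normalised count of 14.8 ± 3.45 (SD, n = 6) in the MSUS females against 7.50 ± 1.78 in the MSUS males. None of the 61 other pathway genes tested was called in males, in the interaction or between the sexes in MSUS, and none of 60 between the sexes in Con. In these comparisons the direction of a small difference in a gene with paralogs, such as the H2-Q, Ifit3 and Ifitm genes, is less certain: read pairs that map to several places are not counted for any gene, and were 4.72% to 5.95% of pairs.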

How the data were processed

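RNA-seq was made from the bilateral NAc (1.5 mm punches) of 24 mice. The authors sequenced 100 bp paired-end libraries, aligned them with STAR 2.6.1b to mm10 using GENCODE M15, and deposited STAR's gene counts for each library; CASAVA 1.8 and HTSeq also appear in the submitters' processing notes. The deposited counts are raw. Column 4, the sense strand of this kit, held 94.8% to 95.1% of the stranded counts and was used throughout; rows naming no gene stayed out of library sizes, and pairs assigned to no gene were 31.0% to 44.7%. Symbols and exon lengths came from GENCODE M21, matched for 52489 identifiers, and promoters from RefSeq (GRCm38.p6).

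Counts were tested in R 4.3.3 with edgeR 4.0.16 (TMM, filterByExpr with a minimum count of 10, robust quasi-likelihood F test), fitted on all genes with Benjamini-Hochberg adjustment over all genes tested. The script was tested on simulated data. The interaction used all 24 animals, every other comparison the 12 animals concerned. Normalised counts are counts divided by DESeq2 (1.42.0) size factors. SEs were derived from the F statistic, and 95% intervals are the estimate plus or minus 1.96 SE. The study's estrous term was left out, since stages are recorded for males and are lacking for many females. No 2 libraries of a group were copies: over 60 pairs the lowest chi-square per gene was 6.11.

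Named genes were those past the threshold, the smallest p where none passed, the 5 highest levels, role representatives, and the 3 largest within-group SDs; others were named after their values were seen. Values of 2 genes of the set are not reported here and not drawn, though the counts include them. The set, lists and motifs were chosen with earlier results of these data known. Alternatives were another tool, normalization, filter, strand rule, a replicate block, 5 covariates and each animal left out.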

Additional observations from a re-analysis of the deposited data

Results flagged for a closer look

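Within each group of 6 animals, Dixon's test at the 95% level was applied to the 28 named genes, 112 groups in all, and marked 14 single values; chance alone marks about 1 in 20 groups, and Gbp2 and Gbp4, with 4 of the 14, were among the genes named for their large spread. Con female 1 was far above the other Con females for Gbp4 (582 normalised counts), Gbp2 (281), Gbp7 (442), Bst2 (81.2) and H2-Q7 (18.3). MSUS male 3 was far above the other MSUS males for Ifit3 (300.9), Isg15 (38.2) and Gbp2 (117). MSUS female 2 was far above the other MSUS females for Ifit3 (283). Con female 3 was far above the other Con females for Ifngr2 (2194), Con male 5 above the other Con males for Stat2 (1510.5) and Con male 1 above them for Gbp4 (141). MSUS female 4 was far below the other MSUS females for Ifnar1 (2597), and Con female 4 below the other Con females for Isg15 (19.9). Over the whole set, 14 of 72 genes were marked high in Con female 1, compared with 0.260% of all genes tested.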

How the results depend on the processing

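In females, 7 genes passed. DESeq2, DESeq2 size factors, the replicate block and a term for library numbers 1 to 12 against 13 to 24 each gave 7. The microglia markers gave 8 and a filter of 10 counts in every animal 6. The 7 genes of DESeq2 were all lower in MSUS females and shared 6 with the main test, without H2-Q7. With no filter on low counts 3 passed (10.1% of all genes), with counts regardless of strand 13 (29.0%), with the cortical markers 3 (14.1%), with the endothelial markers 3 (22.5%) and with the unassigned share 0 (0.0%); leaving out 1 animal gave 1 to 7, with 1 without MSUS female 3 (14.97%). Between the sexes in Con, DESeq2 called 2 (Irf7, Irf9), counts regardless of strand 2, and leaving out 1 animal 0 to 1 (Stat2 without Con male 5, Irf9 without Con male 6). In the interaction leaving out 1 animal gave 0 to 3, with 3 without MSUS male 1. Males and the sexes in MSUS gave 0 in every alternative run. Deviations of same-numbered animals correlated between -0.37 and 0.40, and above 0 throughout for numbers 2 and 4. This check does not settle whether the replicate numbers pair the animals. The replicate block changed no count of calls in the set. Over all genes, 18.5% passed with it in females, against 25.1% without. Between the sexes in Con, 0.0581% of all genes passed with it, against 2.64% without. Signs turned in females, with log2 fold changes under the unassigned share of 0.0026 for B2m, 0.00036 for Gbp2, 0.22 for Gbp4, 0.28 for Gbp7, -0.18 for Ifit3, -0.41 for Isg15, 0.029 for Stat3 and 0.14 for Tap1, and under the cortical markers of 0.10 for Ifi27, 0.061 for Ifitm10, -0.10 for Stat5b and 0.0019 for Ifnar1. The microglia markers gave -0.028 for Ifit3 and -0.0017 for Isg15, and the endothelial markers -0.093 for Ifit3 and 0.093 for Tap1. Leaving out 1 animal gave -0.49 to 0.042 for Gbp2, -0.63 to 0.37 for Gbp4, -0.22 to 0.044 for Gbp7 and -0.22 to 0.12 for Tap1, each highest, and above 0, without Con female 1; it also gave -0.20 to 0.011 for Bst2, -0.10 to 0.14 for Ifit3, -0.098 to 0.25 for Isg15 and -0.015 to 0.018 for Ifnar1. In the interaction H2-D1 turned to 0.083 under the unassigned share and Ifngr2 to 0.024 under the cortical markers. Causes were not tested. DESeq2 gave no adjusted p for Gbp4 or H2-Q7 in females. Depth limits H2-Q7, Stat4 and other genes with few counts.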
